A study of Mus musculus with 6 samples.

Results

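The 27 genes described here encode the enzymes of cholesterol synthesis (20 genes), the proteins that process the transcription factor SREBP2 (6 genes) and the sterol carrier Stard4. They were taken by symbol from the 41388 genes of the deposited tables, and all 27 were found and passed the filter on low counts. The RNA came from the aortic intima of C57BL/6 mice of genotype ApoE -/-, which lack apolipoprotein E and develop plaques. The series design states 6 mice kept for 28 weeks on WD, the usual abbreviation of Western diet. For every library the protocols state an adventitia digestion of 8 min, a tissue digestion of 70 min and a digestion temperature of 37 °C. A cell sorter took propidium iodide-negative CD64+CD11b+ macrophages in 2 gates. Foamy cells were bright for the neutral lipid dye BODIPY493/503 and had much side scatter. Non-foamy cells were dim for the dye and had little scatter. Each gate gave 3 libraries, so both groups carry the same genotype and diet, and no wild-type or chow-fed cells were analysed here. Neither sex nor age is labelled, nor how the mice were divided among libraries, and p-values therefore cover no more than the spread among these libraries, which could be technical.

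Cholesterol is built from acetyl-CoA through mevalonate, isoprenoid diphosphates, squalene and lanosterol. The genes of most of these enzymes are switched on by SREBP2, a membrane protein that SCAP escorts from the endoplasmic reticulum to the Golgi, where the proteases of Mbtps1 and Mbtps2 release its active part. When sterols are plentiful, the INSIG proteins hold SCAP back in the endoplasmic reticulum and the pathway is turned down. Insig1 is itself a target gene of SREBP. Macrophages can also take cholesterol up from lipoproteins, esterify it for storage or export it.

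Foamy libraries had less Insig1 and less Lbr RNA than non-foamy libraries, by 2.65-fold and 3.68-fold, and no member passed the test in the other direction. Of the 20 enzyme genes, Lbr was the only one called. Here and below, per-library values are TMM-normalized counts-per-million values (CPM), foamy replicates 1 to 3 before non-foamy replicates 1 to 3. The summed level of the 20 enzyme genes was 581, 512 and 550 against 553, 602 and 589 CPM, so the groups overlapped. Without Lbr the sums were 552, 497 and 520 against 469, 520 and 483 CPM. Ebp and Msmo1 made up 51.6% to 55.6% of the 20-gene sum in foamy and 44.1% to 46.2% in non-foamy libraries. That sum includes Lbr, at 15.2 to 29.2 against 83.7, 81.95 and 105 CPM, so the shares carry its difference too.

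Called means a Benjamini-Hochberg adjusted p under 0.05 in edgeR's quasi-likelihood test over 11303 genes. The 2 members called lower (7.41% of 27) stand beside 2.90% of all genes tested, and the 0 members called higher beside 2.50%. DESeq2 and limma-voom also called 0 members higher. At an unadjusted p under 0.05 edgeR gave 1 member higher (Pmvk) and 6 lower (Cyp51, Lbr, Srebf2, Insig1, Insig2 and Stard4). Together these were 25.9% of the members, beside 18.75% of all genes tested. In bulk RNA, fewer cells of a type and less RNA per cell cannot be told apart.

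The counts in genes ran from 18592421 to 24279802 in foamy libraries and from 15628627 to 24619075 in the others. Non-foamy libraries had a count in more genes, 19380 to 24701 with replicate 1 highest, against 15595 to 17757. Macrophage markers were present in every library (sums of 21027 to 27411 against 12824 to 20981 CPM), but 5 of 8 were called. Cd68 (log2 fold change 0.97) and Mertk (1.37) were higher in foamy libraries, and Csf1r (-1.28), Adgre1 (-0.83) and Itgam (-0.87) lower. Of the markers of the gate, Itgam, which encodes CD11b, thus fell (77.8 ± 7.82 against 142 ± 13.2 CPM, adjusted p = 0.023), and Fcgr1, which encodes CD64, was not called (0.35, SE 0.24, adjusted p = 0.50). Itgam was no longer called without foamy replicate 1 (-0.80), 2 (-0.94) or 3 (-0.86), without non-foamy replicate 2 (-0.84) or 3 (-0.81), or with no filter (-0.78). Adgre1 lost its call without foamy replicate 1 (-0.90), 2 (-0.68) or 3 (-0.88), or without non-foamy replicate 2 (-0.73). Of 7 tested monocyte markers 5 were called lower in foamy libraries (sums of 18.5 to 28.2 against 353 to 660 CPM), and 4 with limma-voom. The dendritic cell markers summed to 0.33 to 16.0 against 33.1 to 250 CPM, and the fibroblast markers to 1.73 to 39.2 against 9.47 to 283 CPM. EdgeR called none of the 1 and 4 tested, and DESeq2 called the 1 tested dendritic cell marker lower. That marker held most of the non-foamy dendritic cell sums, at 0.19, 14.5 and 0.32 against 178, 249 and 32.2 CPM. Clec9a, not tested, went the other way, with 0, 22 and 33 reads in foamy and 0 in all non-foamy libraries. In the fibroblast list, Dcn alone stood at 0.81, 0.50 and 23.7 against 39.97, 4.18 and 266 CPM. T cell, B cell, neutrophil, endothelial and smooth muscle sums reached at most 34.95 CPM in a library. Of 3 tested neutrophil markers 1 was called lower, S100a9, with 0, 0 and 1 against 58, 308 and 33 reads (adjusted p = 0.0077), though neither with limma-voom nor without non-foamy replicate 2. Of the other 4 lists none of the genes tested was called by edgeR, DESeq2 or limma-voom. Camp was at 0 in all 6 libraries, and Ly6g and Cd3e were at 0 in all foamy libraries. All 10 immediate early and heat shock genes were called lower in foamy libraries by edgeR (sums of 1075 to 1109 against 2117 to 2501 CPM), and 9 by limma-voom. EdgeR called 2.90% of all genes tested lower. Among the 10 were Hspa1a (log2 fold change -3.15), Hspa1b (-3.46), Egr1 (-2.78) and Fos (-0.97). Of 8 cell cycle genes 2 were called lower, Nusap1 and Rrm2 (sums of 246 to 292 against 375 to 442 CPM). The part of these differences in the results that follow was not tested. Nor was the part of the tissue digestion in the immediate early and heat shock values.

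**Figure D1:**
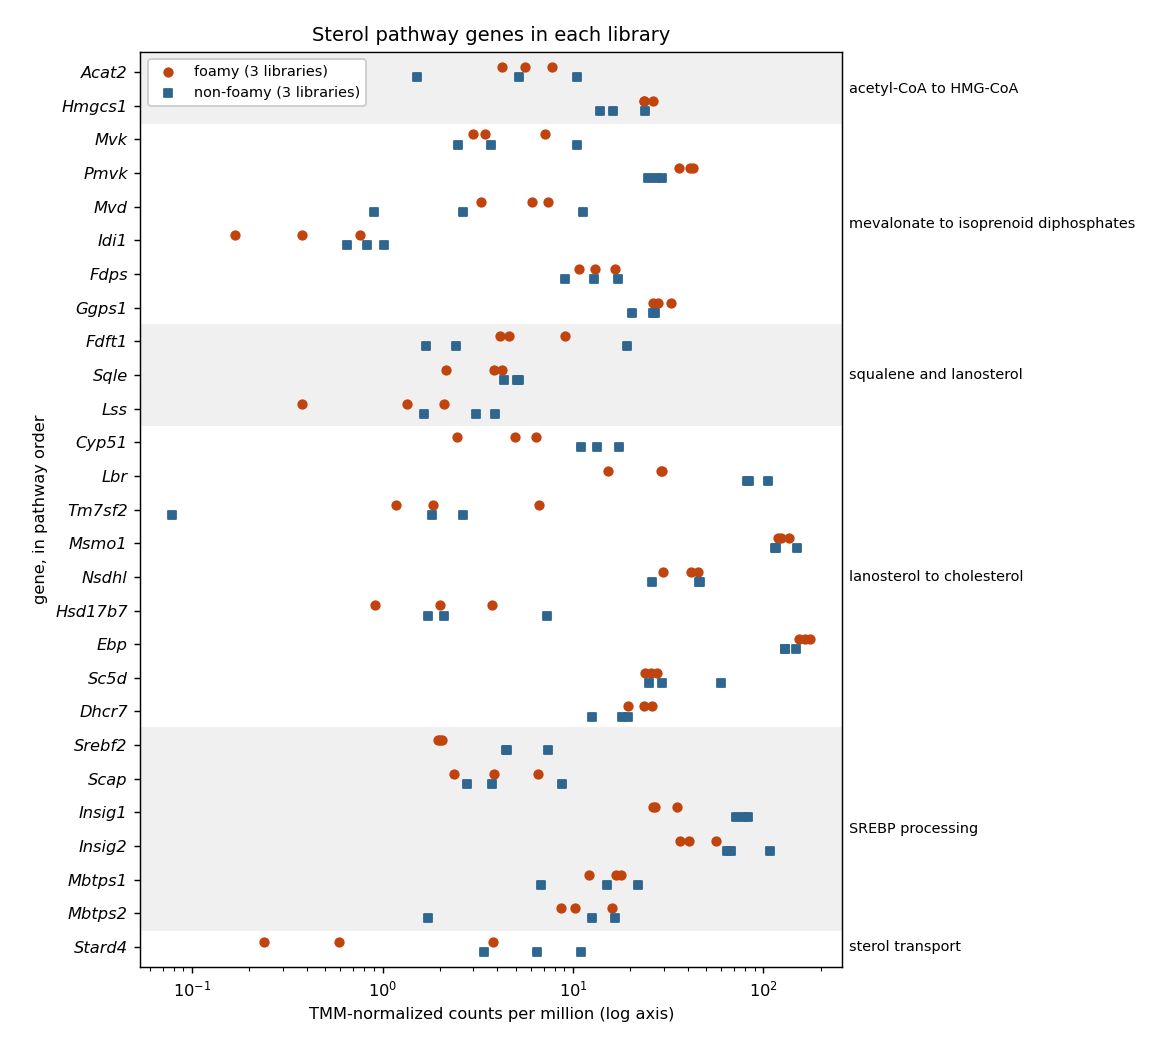
TMM-normalized CPM (log axis) of the 27 genes in each library, in pathway order from top to bottom, with foamy libraries as circles and non-foamy libraries as squares. The circles of Insig1 and Lbr lie wholly to the left of the squares, while the libraries of most enzyme genes interleave.

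Insig1 is described first, since it was the only gene of SREBP processing that was called. It lies on chromosome 5 from 28071363 to 28078662 (GRCm38, plus strand, ENSMUSG00000045294) and is protein-coding. Its promoter is shown because the gene fell. The 250 bases before the RefSeq start site, at chr5:28071162-28071411 (GRCm38.p6, plus strand), read as follows, with a CCAAT box, here as its reverse complement ATTGG, in capitals.
Insig1: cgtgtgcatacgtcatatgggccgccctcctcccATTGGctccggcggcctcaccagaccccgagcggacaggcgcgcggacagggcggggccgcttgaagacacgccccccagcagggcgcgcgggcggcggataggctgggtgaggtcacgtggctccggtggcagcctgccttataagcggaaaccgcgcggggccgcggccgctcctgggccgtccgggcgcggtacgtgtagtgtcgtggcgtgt
The box lies on the minus strand and begins 216 bases before the start site. That start site, at 28071412, lies within the deposited gene model, and so do the last bases of the window.

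Insig1 stood at 34.98, 27.02 and 26.26 against 78.9, 71.8 and 83.4 CPM. Every foamy library was below every non-foamy library, with a wide gap. The means were 29.4 ± 4.83 and 78.0 ± 5.86 CPM (SD, n = 3 each), a log2 fold change of foamy over non-foamy of -1.41 (SE 0.23, 95% interval -1.91 to -0.91, edgeR adjusted p = 0.0048). Under all 14 alternatives of processing or of leaving out a library it was called, with log2 fold changes from -1.68 to -1.30.

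Insig2, whose product also anchors SCAP and whose transcription depends less on SREBP in other cells, stood at 56.6, 40.8 and 36.6 against 109, 64.4 and 67.6 CPM. The groups did not overlap, and non-foamy replicate 1 stood above the others. With a log2 fold change of -0.84 (SE 0.27, 95% interval -1.45 to -0.24) it missed the threshold in edgeR (adjusted p = 0.11). DESeq2 called it lower (-0.84, adjusted p = 0.041), and so did edgeR when only total counts set the scale (-1.14, adjusted p = 0.042).

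Per kilobase, the ratio of Insig1 to Insig2 was 0.80, 0.85 and 0.92 against 0.93, 1.44 and 1.59. Foamy replicate 3 and non-foamy replicate 1 lay almost side by side. The difference in mean log2 ratio was -0.59, with an exact two-sided permutation p = 0.1, the smallest that 3 libraries against 3 can give.

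Srebf2, which encodes SREBP2, was a low transcript, with 37 to 41 reads in foamy and 82 to 134 reads in non-foamy libraries. Its levels were 1.95, 2.06 and 2.00 against 4.44, 7.38 and 4.49 CPM, with no overlap. The log2 fold change of -1.44 had a wide error (SE 0.62, 95% interval -2.80 to -0.08), and the adjusted p was 0.24. None of the 13 alternatives that tested Srebf2 called it.

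The escort and the proteases showed no such separation. Scap, the escort, ran from 2.37 to 6.57 against 2.76 to 8.78 CPM (log2 fold change -0.26, SE 0.66, adjusted p = 0.90). Mbtps1, the site-1 protease that makes the opening cut in the Golgi, ran from 12.2 to 17.8 against 6.81 to 21.9 CPM (0.10, SE 0.43, adjusted p = 0.95). Mbtps2, the protease that makes the final cut within the membrane, ran from 8.68 to 16.05 against 1.73 to 16.7 CPM (0.18, SE 0.66, adjusted p = 0.94). Non-foamy replicate 3 was the lowest library for both proteases and the highest for Scap. The 95% intervals, -1.71 to 1.19 for Scap, -0.86 to 1.05 for Mbtps1 and -1.26 to 1.62 for Mbtps2, each hold a 2-fold change in at least 1 direction, so such a difference cannot be told from none. Together the 6 processing genes had 1 member called lower and a median log2 fold change of -0.55. Their summed level was 95.2 to 123 against 173 to 233 CPM, most of it from Insig1 and Insig2.

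**Figure D2:**
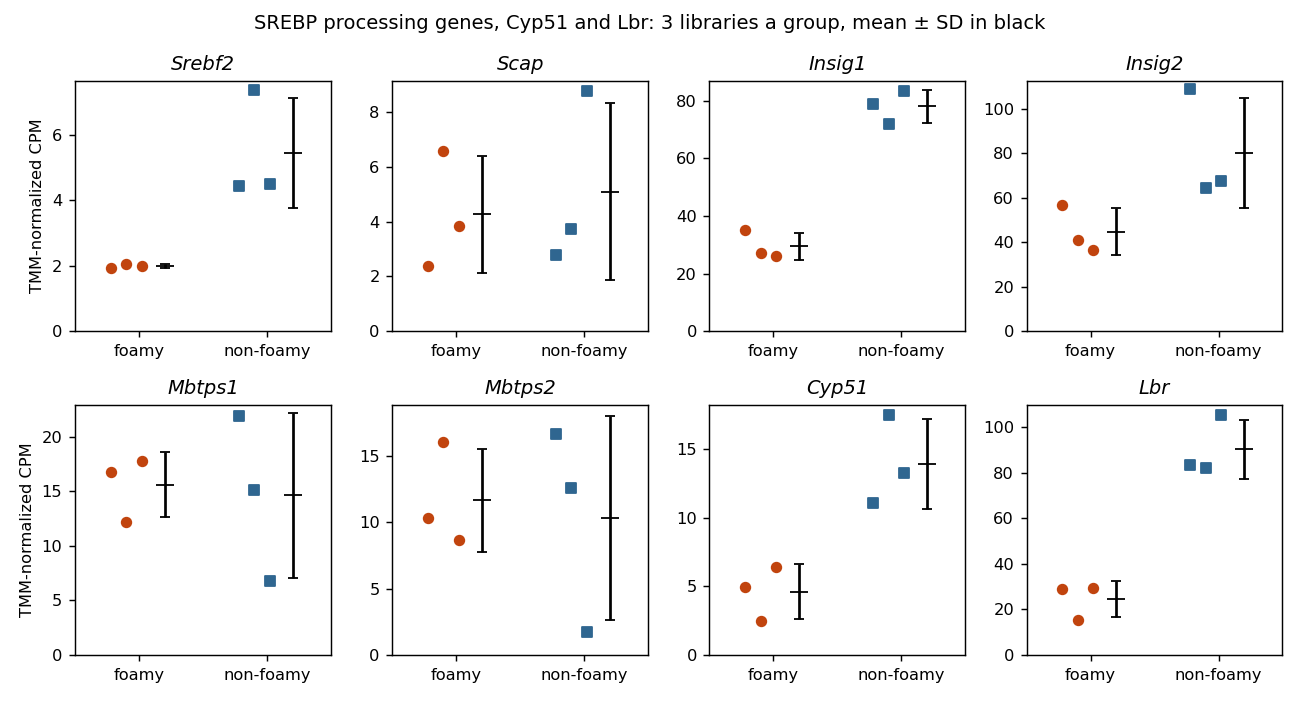
TMM-normalized CPM of the 6 SREBP processing genes, Cyp51 and Lbr in foamy (circles) and non-foamy (squares) libraries, with the mean ± SD of 3 libraries in black and each axis starting at 0. Srebf2, Insig1, Insig2, Cyp51 and Lbr have all foamy points below all non-foamy points, and Scap, Mbtps1 and Mbtps2 do not.

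Lbr is described next, as the only enzyme gene called. Its product, the lamin B receptor, is a protein of the inner nuclear membrane that binds lamin and chromatin and also reduces a double bond of a sterol intermediate after lanosterol. The gene lies on chromosome 1 from 181815316 to 181842401 (GRCm38, minus strand, ENSMUSG00000004880). Its promoter is shown beside that of Insig1, as the other member called. The 250 bases before the RefSeq start site, at chr1:181842402-181842651 (GRCm38.p6, minus strand), hold 2 CCAAT boxes, in capitals, which begin 68 and 28 bases before the start site.
Lbr: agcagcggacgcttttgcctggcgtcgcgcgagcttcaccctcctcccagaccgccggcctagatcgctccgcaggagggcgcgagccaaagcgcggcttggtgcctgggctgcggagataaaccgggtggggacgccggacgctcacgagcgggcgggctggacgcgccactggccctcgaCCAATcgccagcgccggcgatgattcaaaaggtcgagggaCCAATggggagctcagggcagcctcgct

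Lbr stood at 29.1, 15.2 and 29.2 against 83.7, 81.95 and 105 CPM. The groups lay far apart, and foamy replicate 2 was the lowest library. The means were 24.5 ± 8.07 and 90.4 ± 13.1 CPM (SD, n = 3 each), a log2 fold change of -1.88 (SE 0.29, 95% interval -2.51 to -1.25, edgeR adjusted p = 0.0035). All 14 alternatives called it, with log2 fold changes from -2.16 to -1.62.

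The cell cycle genes Nusap1 (23.7 ± 5.25 against 65.5 ± 13.9 CPM) and Rrm2 (40.4 ± 6.38 against 78.6 ± 9.87 CPM) fell in the same libraries, and the part of dividing cells in the Lbr values was not tested. Nusap1 was no longer called when foamy replicate 2 (log2 fold change -1.30) or 3 (-1.48) was left out. Rrm2 was no longer called without foamy replicate 1 (-1.03), 2 (-0.82) or 3 (-1.01), non-foamy replicate 2 (-0.99) or 3 (-0.84), or with no filter on low counts (-0.86).

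Tm7sf2 encodes the other reductase of the same sterol double bond. It had 21 to 140 reads in foamy and 2 to 49 reads in non-foamy libraries, or 6.64, 1.17 and 1.83 against 2.65, 1.82 and 0.08 CPM. The groups overlapped and the 95% interval was wide (log2 fold change 1.09, SE 1.12, interval -1.38 to 3.56, adjusted p = 0.69). It shares 1827 exon bases on the same strand with Vps51, and how shared reads were counted is unknown, so its level is uncertain.

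Cyp51, the demethylase that acts on lanosterol, was the enzyme gene nearest to the threshold besides Lbr. It stood at 4.98, 2.45 and 6.42 against 11.05, 17.5 and 13.3 CPM. The groups did not overlap, but the adjusted p was 0.087 (log2 fold change -1.59, SE 0.48, 95% interval -2.65 to -0.53). DESeq2 (-1.59, adjusted p = 0.017) and total-count scaling (-1.87, adjusted p = 0.040) called it lower, and the other 12 alternatives did not.

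The remaining enzymes after lanosterol differed little or unclearly. Msmo1, the methyl sterol oxidase, stood at 123, 119 and 137 against 115, 149 and 117 CPM, with values interleaved. Its log2 fold change was -0.01 with a 95% interval of -0.43 to 0.41, inside a 2-fold change either way. Ebp, the sterol isomerase, stood at 177, 166 and 153 against 129, 129 and 148 CPM. Every foamy library was above every non-foamy library by a small margin, and the adjusted p was 0.44 (log2 fold change 0.29, SE 0.18, interval -0.10 to 0.67).

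Nsdhl, a dehydrogenase of the demethylation steps, ran from 29.7 to 45.1 against 26.1 to 46.7 CPM, with a log2 fold change of -0.02 (interval -0.67 to 0.63). Dhcr7, which reduces the last double bond of its branch, ran from 19.45 to 25.9 against 12.5 to 19.37 CPM, so that the groups nearly touched (0.47, interval -0.22 to 1.15, adjusted p = 0.49). Sc5d, the desaturase before it, was even in foamy libraries (23.96 to 27.5 CPM) and uneven in non-foamy libraries, at 29.4, 24.99 and 59.9 CPM. Non-foamy replicate 3 was far above the others (-0.57, interval -1.31 to 0.18, adjusted p = 0.42). Hsd17b7, the ketoreductase, had 17 to 67 against 32 to 185 reads and an interval of -2.59 to 1.11. Of the 9 genes after lanosterol, 1 was called lower and none higher, and their median log2 fold change was -0.02.

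At the entry of the pathway, Hmgcs1, the HMG-CoA synthase, stood at 23.7, 23.7 and 26.4 against 23.8, 13.9 and 16.1 CPM. Non-foamy replicate 1 reached the foamy level and the other pair lay below it (log2 fold change 0.46, SE 0.31, interval -0.22 to 1.13, adjusted p = 0.49). Its promoter is shown because, of the 23 members with a RefSeq window, it was the only one with a match to the sterol response element searched, TCACNCCAC on either strand. The gene lies on chromosome 13 from 119690462 to 119708086 (GRCm38, plus strand). The 250 bases before its RefSeq start site, at chr13:119690101-119690350 (GRCm38.p6, plus strand), carry that match, TCACCCCAC, beginning 137 bases before the start site, and 3 reversed CCAAT boxes, all in capitals.
Hmgcs1: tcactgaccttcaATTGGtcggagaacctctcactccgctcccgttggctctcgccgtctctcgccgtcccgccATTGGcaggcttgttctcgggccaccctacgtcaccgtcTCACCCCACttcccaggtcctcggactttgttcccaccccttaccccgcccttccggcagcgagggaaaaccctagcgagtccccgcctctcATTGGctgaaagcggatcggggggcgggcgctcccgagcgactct
The RefSeq start site of Hmgcs1, at 119690351, lies before the start of the deposited gene model. Hmgcs1 was not called. The search took only these letters within 250 bases, so a window without a match does not show that such an element is absent.

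Across all 27025 genes with a window, 1.23% held a match to TCACNCCAC in these 250 bases, against 1 of 23 members (4.3%). CCAAT, on either strand, was found in 19 of 23 members (82.6%) and in 37.5% of all genes, or 40.7% of the 8752 genes that were also tested here. The GC box GGGCGG, on either strand, was found in 20 of 23 members (87.0%) and in 35.4% of all genes, or 63.8% of those tested. Insig1 and Lbr hold both, as do most members that were not called. A match of letters is neither a binding site nor a cause. Sqle, Stard4, Fdps and Fdft1 had no window to search.

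The steps from mevalonate to the isoprenoid diphosphates had 0 of 6 genes called in either direction and a median log2 fold change of 0.12. Pmvk, phosphomevalonate kinase, stood at 42.6, 35.8 and 41.1 against 27.2, 29.4 and 24.8 CPM. All foamy libraries were above all non-foamy libraries, yet the adjusted p was 0.24 (log2 fold change 0.55, SE 0.24, interval 0.03 to 1.08). Fdps, the farnesyl diphosphate synthase, ran from 10.8 to 16.7 against 9.08 to 17.2 CPM (interval -0.79 to 0.90). Ggps1, which makes the geranylgeranyl diphosphate used to anchor proteins in membranes, ran from 26.4 to 32.9 against 20.4 to 26.9 CPM (interval -0.34 to 0.83).

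Mvk, mevalonate kinase, Mvd, the decarboxylase, and Idi1, the isomerase, were too low or too uneven for a comparison. Mvk had 63 to 128 against 45 to 194 reads, and Mvd 61 to 132 against 23 to 204 reads. Idi1 had 3 to 16 against 12 to 26 reads. Their intervals reached a 2-fold change in both directions, from -1.79 to 1.19 for Mvk, -1.60 to 1.97 for Mvd and -3.22 to 1.37 for Idi1. Acat2, the thiolase that joins acetyl-CoA units, was also uneven, at 1.52, 10.46 and 5.20 CPM in non-foamy replicates 1 to 3 beside 4.23 to 7.74 CPM in foamy libraries (interval -1.44 to 1.51).

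The 3 genes around squalene were low and none was called. Sqle, the squalene epoxidase, stood at 3.84, 4.23 and 2.16 against 5.09, 4.35 and 5.24 CPM. Only a narrow gap separated foamy replicate 2 from non-foamy replicate 2 (log2 fold change -0.52, interval -1.81 to 0.77, adjusted p = 0.73). Lss, the cyclase that forms lanosterol, had 8 to 39 against 42 to 72 reads (-1.17, interval -3.15 to 0.81). Fdft1, squalene synthase, stood at 4.13, 9.08 and 4.64 against 2.44, 19.1 and 1.69 CPM, so that non-foamy replicate 2 was 11.3 times replicate 3. Leaving out non-foamy replicate 2 moved its log2 fold change from -0.38 to 1.53, still without a call. Fdft1 shares 767 exon bases with Ctsb on the opposite strand, whose counts ran from 521501 to 1985641 a library, and its values are uncertain for that reason.

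Stard4, which carries sterol between membranes and is itself a target of SREBP2, had the lowest log2 fold change of the list but no call. It had 5, 68 and 11 against 203, 62 and 164 reads, or 0.24, 3.79 and 0.59 against 10.995, 3.41 and 6.46 CPM. Foamy replicate 2 was above non-foamy replicate 2, so the groups overlapped (log2 fold change -2.18, SE 0.95, interval -4.27 to -0.08, edgeR adjusted p = 0.25). When foamy replicate 2 was left out the log2 fold change was -4.04 and the adjusted p 0.063.

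**Figure D3:**
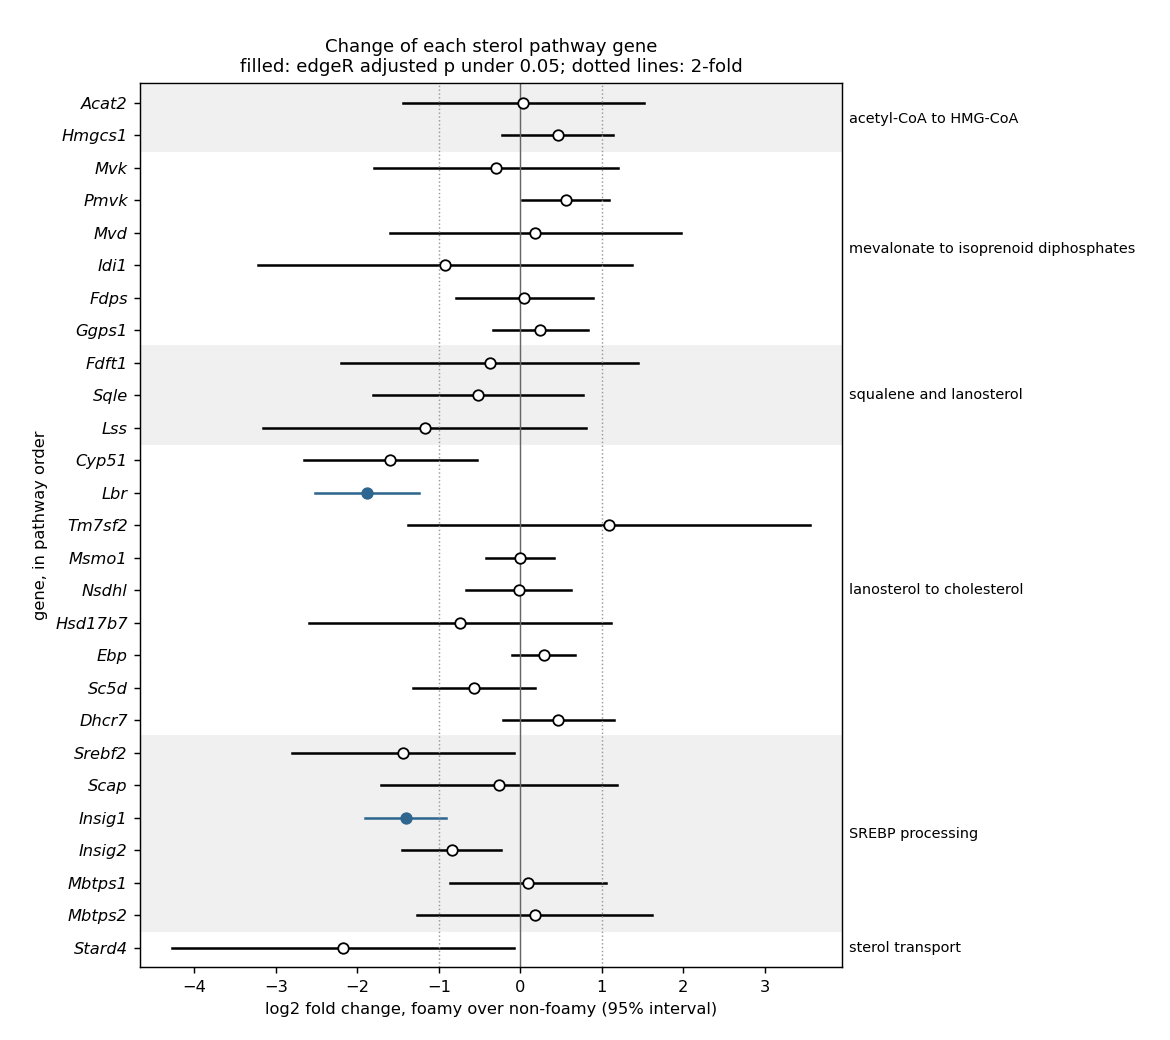
Log2 fold change of foamy over non-foamy libraries with its 95% interval for the 27 genes in pathway order. Filled points, Lbr and Insig1, passed an edgeR adjusted p of 0.05, dotted lines mark a 2-fold change, and 22 of the 27 intervals reach beyond it in at least 1 direction.

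The members differed widely in precision. Of 27 intervals, 20 held a difference of 0 and 5 lay inside a 2-fold change either way, those of Ebp, Msmo1, Nsdhl, Ggps1 and Fdps. Another 9 reached a 2-fold change in both directions, and for those genes these libraries cannot show whether the populations differed. In 12 members the mean was under 10 CPM in both groups.

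The median log2 fold change was -0.26 over the members and -0.04 over all genes tested. It came to 0.004 with limma-voom and to 0.02 over the 19 members left by a stricter filter, so its sign is not settled. All foamy libraries were above all non-foamy libraries in 3 members (Pmvk, Ebp and Dhcr7; 11.1%) and below them in 6 (Sqle, Cyp51, Lbr, Srebf2, Insig1 and Insig2; 22.2%), beside 12.4% and 13.3% of all genes tested. When only total counts set the scale, the median of all genes tested was -0.31 and the calls over all genes went from 283 higher and 328 lower to 165 and 614. Insig1, Lbr, Cyp51 and Insig2 were then called lower, and no member higher.

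Levels per kilobase were read from the deposited RPKM, which are scaled by total counts per kilobase of gene model, without TMM. Group differences in RPKM are therefore on another scale than the fold changes above. Ebp was far above the other members, with a median of 66.0 over the 6 libraries and no library under 59.5. Pmvk (22.05), Insig1 (19.96), Msmo1 (19.8), Insig2 (17.1), Lbr (16.1) and Nsdhl (13.4) followed, and each neighbouring pair in that order overlapped over libraries. The lowest were Tm7sf2 (0.52), Hsd17b7 (0.42), Idi1 (0.20) and Lss (0.17), which overlapped likewise. Insig1 had a median RPKM of 31.9 in non-foamy libraries, behind Ebp alone, and of 9.67 in foamy libraries. Lbr had 27.8 and 7.12, and Srebf2, a low member in both, 1.05 and 0.36.

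Several counts carry a limit of annotation. Exons of Ggps1 (170 bases, Arid4b), Lss (1143 bases), Scap (1523 bases) and Mbtps2 (6462 bases, Yy2) overlap other genes in the tables, and those overlapping Lss, Scap and Mbtps2 had at most 7 reads in a library. Acat2 has a near-identical copy, Acat3, aligned at 97.7% identity over 1477 bases, which had 0 to 6 reads, and aligns on the opposite strand with Tcp1 over 445 bases. Fdps, Ggps1, Fdft1 and Idi1 have pseudogene copies at 96.1% identity or more, and those in the tables had at most 5 reads. Dhcr7 and Msmo1 each hold a stretch of about 200 bases that recurs in other transcripts. Reads that match several genes equally cannot be assigned, so these members are uncertain.

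The rest of the cholesterol machinery was read from 5 lists of related genes. Of 13 tested genes of intracellular sterol transport and esterification, 5 were called higher and 0 lower in foamy libraries by edgeR, DESeq2 and limma-voom alike. EdgeR called 2.50% of all genes tested higher and 2.90% lower. The list's median log2 fold change was 0.13, and -0.14 when only total counts set the scale, with 3 then called higher. All foamy libraries were above all non-foamy libraries in 5 of the 13 genes (38.5%). They were below them in 3 (23.1%), Gramd1a, Stard3 and Osbp, none of them called. Over all genes tested these shares were 12.4% and 13.3%. Gramd1a had a log2 fold change of -1.26 (SE 0.51, edgeR adjusted p = 0.21). Npc2, which hands cholesterol out of the lysosome, averaged 3080 ± 261 against 1383 ± 343 CPM (log2 fold change 1.16, SE 0.20, adjusted p = 0.0076). Gramd1b, a carrier of plasma membrane cholesterol to the endoplasmic reticulum, stood at 41.5, 39.8 and 39.4 against 16.4, 12.2 and 14.1 CPM (95% interval of the log2 fold change 0.92 to 2.08, SE 0.26, adjusted p = 0.0076). Both were called under all 14 alternatives.

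The other transport genes called were Soat1, which esterifies cholesterol for storage, Stard5, a sterol carrier, and Npc1, the membrane partner of Npc2, named after its value was seen. Soat1 averaged 823 ± 145 against 413 ± 67.7 CPM (0.99, SE 0.20), Stard5 46.1 ± 8.93 against 16.5 ± 6.62 CPM (1.48, SE 0.34) and Npc1 82.6 ± 3.38 against 36.6 ± 13.2 CPM (1.18, SE 0.28), with adjusted p of 0.014, 0.030 and 0.034. Soat1 lost its call when foamy replicate 3 (0.86) or non-foamy replicate 2 (1.05) was left out. For Stard5 this happened on leaving out foamy replicate 1 (1.33), 2 (1.61) or 3 (1.52), or non-foamy replicate 2 (1.56). Npc1 kept its call only when non-foamy replicate 2 was the library left out, and had log2 fold changes of 1.22, 1.17 and 1.16 without each foamy library and of 1.20 and 0.93 without non-foamy replicates 1 and 3.

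**Figure D4:**
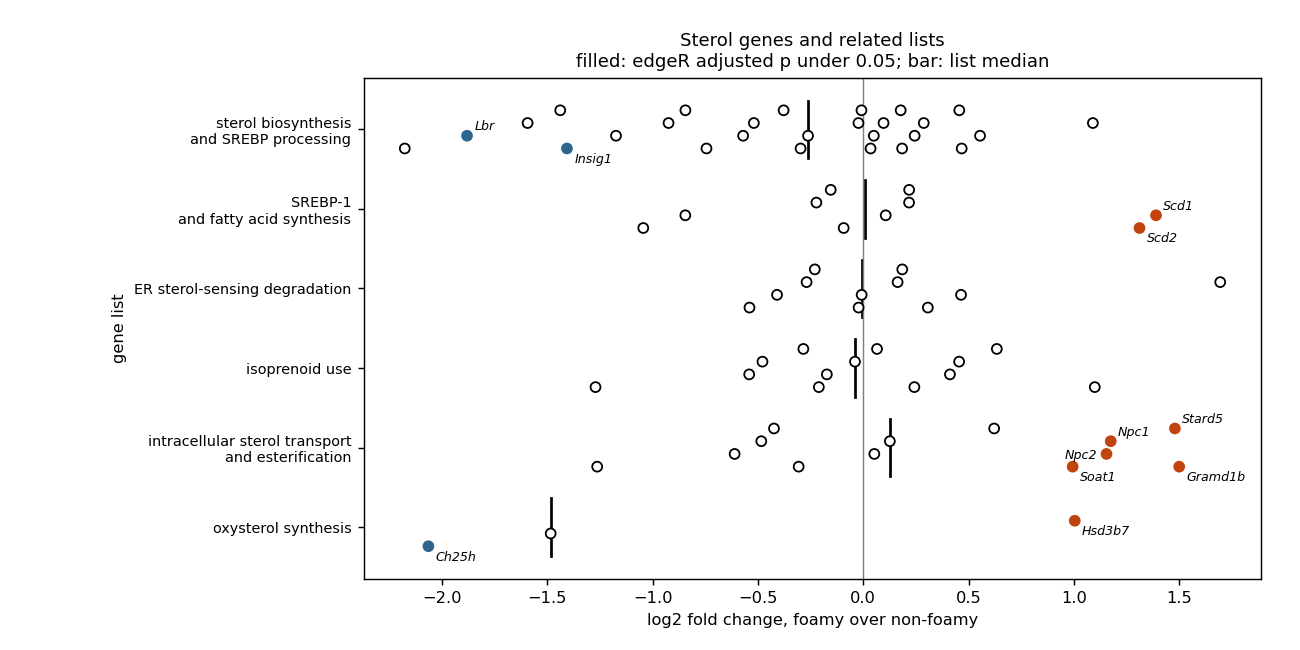
Log2 fold change of foamy over non-foamy libraries for each tested gene of the sterol list and of 5 related lists, with a bar at each list's median. Filled points are called genes: those of sterol transport lie near or above 1, while Lbr, Insig1 and Ch25h lie below -1.

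Genes of fatty acid synthesis, which the related factor SREBP1 drives, had 2 of 10 tested members called higher and 0 lower, with a median of 0.01. Of all genes tested, 2.50% were called higher and 2.90% lower. The 2 called genes encode stearoyl-CoA desaturases. Scd1 stood at 61.9, 121 and 89.4 against 44.3, 32.7 and 27.1 CPM (log2 fold change 1.39, SE 0.29, adjusted p = 0.019). Scd2 stood at 61.04, 107 and 86.4 against 39.6, 28.95 and 33.7 CPM (1.31, SE 0.26, adjusted p = 0.014). All foamy libraries were above all non-foamy libraries for both, and as close paralogs they could share reads. Elovl6 lay wholly below, at 2.75, 2.51 and 1.56 against 4.01, 4.84 and 3.42 CPM, without a call (-0.84, SE 0.66, edgeR adjusted p = 0.57). The groups were thus apart upward in 20% and downward in 10% of the list, beside 12.4% and 13.3% of all genes tested. Scd1 was not called on leaving out replicate 2 of either group (foamy 1.14, non-foamy 1.35) or replicate 3 of either (1.41 and 1.25). Scd2 was not called on leaving out foamy replicate 2 (1.12) or 3 (1.30), or non-foamy replicate 2 (1.21). Srebf1, which encodes SREBP1, ran from 6.04 to 13.8 against 2.09 to 17.1 CPM and was not called.

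Of 3 tested oxysterol genes, 1 was called in each direction by edgeR and limma-voom, and 1 higher and 2 lower by DESeq2. When only total counts set the scale, 0 were called higher and 2 lower. The edgeR shares over all genes tested were 2.50% higher and 2.90% lower. Ch25h, which makes 25-hydroxycholesterol, an oxysterol that INSIG proteins bind, stood at 21.5, 18.6 and 19.96 against 51.2, 90.9 and 109 CPM. The gap between the groups was clear (log2 fold change -2.06, SE 0.30, adjusted p = 0.0023), and all 14 alternatives called it. Hsd3b7, which acts on oxysterols on the way to bile acids, averaged 116 ± 26.2 against 58.0 ± 3.54 CPM (1.004, SE 0.22, adjusted p = 0.023). Its call did not survive leaving out foamy replicate 1 (1.02) or 3 (0.84), or non-foamy replicate 2 (0.96). Cyp27a1, the sterol 27-hydroxylase, stood at 6.17, 5.52 and 3.94 against 10.94, 16.02 and 16.8 CPM. The groups did not overlap, and it was not called by edgeR (log2 fold change -1.48, SE 0.42, adjusted p = 0.069) but was called lower by DESeq2 (adjusted p = 0.012) and with total-count scaling (-1.74, adjusted p = 0.032).

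Total-count scaling also ended the calls of Scd1 (1.12), Scd2 (1.05), Soat1 (0.71), Npc1 (0.90) and Hsd3b7 (0.72).

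The machinery that degrades sterol-regulated proteins of the endoplasmic reticulum had 0 of 11 tested genes called, with Ufd1 (0.46, adjusted p = 0.33) and Erlin1 (-0.54, adjusted p = 0.48) the nearest. Genes that use isoprenoids for prenylation, dolichol or ubiquinone had 0 of 13 called, with Rce1 (0.63, adjusted p = 0.28) and Zmpste24 (-0.48, adjusted p = 0.32) the nearest. DESeq2 and limma-voom also called 0 genes in both lists. At an unadjusted p under 0.05 edgeR gave 0 in each, beside 18.75% of all genes tested.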

How the data were processed

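Libraries were made with a SMARTer low-input cDNA kit, 12 amplification cycles and single 50-base reads, per the labels' protocols. Per the submitters' processing notes, the tools were STAR 2.0.4b and featureCounts 1.4.5 of Subread, with build GRCm38. The sources used here give neither strandedness nor the handling of shared reads. The deposited counts are whole reads per gene without normalization. The deposited CPM and RPKM were recomputed from those counts and agree within 1e-06. Counts were tested with edgeR 4.0.16 in R 4.3.3 (filterByExpr, TMM, robust quasi-likelihood F-test, Benjamini-Hochberg adjustment over all genes tested). The SE is the absolute log2 fold change over the root of F, and 95% intervals use the total degrees of freedom. The scripts were tested on simulated data.

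The members and lists were chosen with earlier results of these data known. Named were all members. In each other list of the pathway or of cell state, up to 4 called genes in each direction were named by p. Where none was called, the 2 of smallest p were named. Npc1, Gramd1a, Stard3, Osbp, Srebf1, Elovl6, Cyp27a1, cell type markers and neighbours were added after their values were seen. Of the list symbols, 1 (Marchf6) was not matched, and 1 further list and 1 marker are not reported here. Promoters are from RefSeq (GRCm38.p6), and near copies were sought with BLAST 2.17.0 (at least 95% identity over 200 bases). The 14 alternatives were RLE, upper-quartile and total-count scaling, DESeq2 1.42.0, limma-voom (limma 3.58.1), no filter and a stricter filter (mean of 5 CPM, and 10 counts in 3 libraries), a replicate block, and each library left out. Amplified reads without molecular identifiers are not independent molecules.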

Additional observations from a re-analysis of the deposited data

How the results depend on the processing

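Insig1 and Lbr were called under all 14 alternatives, and 23 of the other members under none. Members called lower numbered 4 with DESeq2 and 4 with total-count scaling, and 2 under the other alternatives; none was called higher under any. Over all genes the calls numbered 1173 with DESeq2 and 271 to 579 with 1 library left out, against 611. The sign of the log2 fold change changed in 12 members, none of them called, and the cause was not tested. Upper-quartile scaling gave 0.022 for Msmo1 and 0.0073 for Nsdhl, limma-voom 0.0035 and 0.044, and no filter 0.090 and 0.10. Fdft1 came to 0.49 with limma-voom. Total-count scaling gave -0.22 for Acat2, -0.073 for Mvd, -0.25 for Fdps, -0.037 for Ggps1, -0.22 for Mbtps1 and -0.12 for Mbtps2. With 1 library left out, values ran from -0.42 to 0.80 for Acat2, -0.77 to 0.55 for Mvk, -0.30 to 1.66 for Mvd, -0.15 to 0.30 for Fdps, -0.84 to 1.53 for Fdft1, -0.077 to 0.13 for Msmo1, -0.24 to 0.15 for Nsdhl, -1.34 to 0.22 for Hsd17b7, -0.71 to 0.40 for Scap, -0.24 to 0.51 for Mbtps1 and -0.31 to 0.71 for Mbtps2. Same-numbered libraries did not deviate together (r of -0.071, -0.023 and -0.031). These correlations cannot show whether such libraries came from the same mice, which the labels do not state. A replicate block gave 391 calls over all genes, the same 2 members called, 0.38 for Fdft1 and 0.0020 for Nsdhl. It ended the calls of Scd1, Scd2, Soat1, Stard5, Npc1, Hsd3b7, Rrm2, Adgre1 and Itgam. The stricter filter left out 8 members. Low counts limit Idi1, Lss, Tm7sf2, Stard4, Hsd17b7 and Srebf2. Their 95% intervals extend by more than a 2-fold change either side of the estimate. So do those of Acat2, Mvk, Mvd, Fdft1, Sqle, Cyp51, Scap and Mbtps2.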
